A study of Rattus norvegicus with 12 samples.

Results

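The genes Acadsb, Prkab2, Chrdl2, Vtcn1 and Amy1 were followed over 12 arrays of rat esophageal tissue from a study of chemically induced esophageal cancer. They were selected on their measured values in these arrays, as genes higher than control at weeks 6 and 29 and near or below control at week 15. The platform annotation listed 6 probe sets under 1 of these 5 symbols, out of 31042 probe sets tested and 14217 named genes. Because the differences from control chose the genes, those differences are given below as a description, with no test.

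Per the labels, the study had 4 groups of 3 samples. Rats of the 3 treated groups received the nitrosamine N-nitrosomethylbenzylamine (NMBA), a carcinogen of the esophageal squamous epithelium in rats, in doses of 0.3 mg per kg. It was given under the skin in 0.2 ml, 3 times per week for 5 weeks, and tissue is labelled by week 6, 15 or 29 as early, middle and late stage. Control rats are labelled normal, and the solvent, a mixture of dimethyl sulfoxide and water, is the other injection the protocol names. The sources used here do not give the strain, the age, the sampling week of the controls or the animal behind each array, and a p-value therefore reflects only how these samples spread.

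Values are log2 probe set signals, so a difference of 1 is a doubling of signal. The protocol strips the esophagus of its submucosal and muscle layers, but genes of skeletal muscle were bright on all 12 arrays. The muscle score, the mean log2 signal of 46 skeletal muscle genes, ran from 11.54 to 11.97 in controls, 12.30 to 12.40 at week 6, 9.98 to 11.49 at week 15 and 12.07 to 12.28 at week 29. The score of 21 squamous epithelial genes ran the other way, from 10.95 to 11.28 in controls, 10.07 to 10.52 at week 6, 11.18 to 11.79 at week 15 and 9.61 to 10.28 at week 29. In bulk tissue, fewer cells of a type and less RNA per cell cannot be told apart. The array's GAPDH controls give a measure of RNA integrity, the 3' minus the 5' signal, which is larger in degraded RNA. Its mean was low at week 6 (0.11) and week 29 (0.17) and stood at 0.40 both in controls and at week 15.

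Acadsb encodes short/branched chain acyl-CoA dehydrogenase, a mitochondrial enzyme of isoleucine breakdown. Prkab2 encodes a beta subunit of AMP-activated protein kinase (AMPK), an energy sensor built of a catalytic alpha, a scaffolding beta and a nucleotide-binding gamma subunit; the form with this beta subunit is abundant in skeletal muscle. Chrdl2 encodes chordin-like protein 2, a secreted antagonist of bone morphogenetic proteins (BMPs). Vtcn1 encodes B7-H4, a membrane protein of the B7 family that restrains T cells. Amy1 encodes alpha-amylase, which cleaves starch and glycogen and is secreted by salivary glands. In rodents the muscle coat of the esophagus is striated along its length.

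The sequences just upstream of the start sites were set side by side because the genes were grouped for moving together. The RefSeq table, on build GRCr8, held 4 of the 5 genes. Each run is the 250 bases before the annotated start, 5' to 3', with capitals for matches to CANNTG (the E-box bound by myogenic and other helix-loop-helix factors) or AGGTCA (a nuclear receptor half-site) on either strand.
Acadsb, chr1:195618966-195619215, plus strand: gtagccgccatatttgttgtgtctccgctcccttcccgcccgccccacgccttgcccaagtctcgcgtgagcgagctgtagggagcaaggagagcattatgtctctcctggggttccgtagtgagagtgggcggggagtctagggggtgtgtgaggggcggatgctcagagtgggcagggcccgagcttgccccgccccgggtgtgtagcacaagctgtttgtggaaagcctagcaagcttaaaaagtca
Prkab2, chr2:187946151-187946400, plus strand: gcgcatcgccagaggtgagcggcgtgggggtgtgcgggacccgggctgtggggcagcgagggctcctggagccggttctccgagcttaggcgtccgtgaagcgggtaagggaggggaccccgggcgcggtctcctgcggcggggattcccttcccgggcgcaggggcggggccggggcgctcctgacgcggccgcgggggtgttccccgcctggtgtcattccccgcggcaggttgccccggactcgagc
Vtcn1, chr2:190941974-190942223, plus strand: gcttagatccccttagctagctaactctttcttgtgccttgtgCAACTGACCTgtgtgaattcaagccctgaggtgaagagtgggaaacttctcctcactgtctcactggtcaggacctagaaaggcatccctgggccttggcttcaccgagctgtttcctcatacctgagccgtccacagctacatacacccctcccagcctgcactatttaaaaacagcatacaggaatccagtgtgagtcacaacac
Amy1, chr2:204085911-204086160, minus strand: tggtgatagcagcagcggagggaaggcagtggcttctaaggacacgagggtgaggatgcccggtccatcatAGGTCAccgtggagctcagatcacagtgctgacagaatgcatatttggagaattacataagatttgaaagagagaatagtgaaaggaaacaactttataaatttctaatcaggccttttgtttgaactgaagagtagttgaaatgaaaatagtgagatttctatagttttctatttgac
No such match was common to all 4 windows, while Vtcn1 and Amy1 each held the AGGTCA half-site, on opposite strands. Vtcn1 held 1 CANNTG match, 207 bases before the start, which overlapped a TGACCT match at 203 (the reverse complement of AGGTCA). Amy1 held AGGTCA 179 bases before the start, and Acadsb and Prkab2 held neither motif. Of 33469 promoter windows of the same length, 65.5% held CANNTG and 14.1% held AGGTCA. No window of the 4 held the MEF2 consensus, which 2.96% of all windows held. The GC content was 76.0% for Prkab2, 61.2% for Acadsb, 50.8% for Vtcn1 and 40.8% for Amy1, beside a median of 51.2% over all windows. A match here is a description of letters, not a binding site.

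Acadsb had the largest week 6 difference of the 5 genes. Its log2 signal (probe set 1369526_at) was 4.58, 5.68 and 4.98 in the controls, 6.59, 6.56 and 7.23 at week 6, 4.57, 5.72 and 5.23 at week 15, and 6.53, 6.15 and 5.98 at week 29. All week 6 and week 29 arrays lay above every control, while the week 15 arrays spanned the control range. The week 6 mean of 6.80 ± 0.38 (SD, n = 3) stood 1.72 above the control mean of 5.08 ± 0.55, a 3.29-fold difference. The week 29 mean of 6.22 ± 0.28 stood 1.14 above control, or 2.21-fold, and the week 15 mean of 5.17 ± 0.57 stood 0.09 above it. The standard error of each difference was 0.31.

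Prkab2 followed the same course on its brighter probe set (1369271_at). Its log2 signal was 5.73, 6.28 and 5.76 in the controls, 7.04, 7.17 and 7.48 at week 6, 5.74, 6.15 and 5.54 at week 15, and 6.83, 6.97 and 6.87 at week 29. The week 6 and week 29 arrays again lay above every control, and 1 of 3 week 15 arrays lay below the lowest control. The differences from control were 1.31 at week 6, -0.11 at week 15 and 0.97 at week 29 (SE 0.18), or 2.47-fold at week 6 and 1.95-fold at week 29. The other Prkab2 probe set (1378845_at) did not share the week 15 return. It read 5.33, 5.13 and 5.27 in the controls, 5.43, 5.44 and 5.54 at week 6, 5.59, 5.69 and 5.29 at week 15, and 5.71, 5.51 and 5.62 at week 29. Its differences were 0.23, 0.28 and 0.37 (SE 0.11), so it was dimmer, moved less and was above every control in 2 of 3 week 15 arrays. The 2 probe sets of this gene thus disagreed on the pattern for which it was chosen.

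Chrdl2 was measured on a single probe set (1393954_at) and had the widest week 15 spread of the 5 genes. Its log2 signal was 6.04, 6.32 and 6.01 in the controls, 7.32, 7.61 and 7.33 at week 6, 6.73, 6.34 and 5.34 at week 15, and 6.90, 7.35 and 7.51 at week 29. The week 15 mean of 6.14 ± 0.72 lay 0.02 from the control mean of 6.12 ± 0.17, but 2 of its 3 arrays lay above every control and 1 below every control. Its closeness to control at week 15 was therefore a mean of unlike arrays, and without week 15 replicate 3 the difference was 0.42. The differences from control were 1.30 at week 6 and 1.13 at week 29 (SE 0.28), or 2.47-fold and 2.19-fold.

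Vtcn1 (probe set 1380134_at) read 4.87, 5.31 and 4.76 in the controls, 5.95, 6.40 and 6.57 at week 6, 4.37, 5.00 and 4.24 at week 15, and 5.72, 6.04 and 6.00 at week 29. At week 15 only arrays 1 and 3 lay below every control, and the other one lay within the control range. The differences from control were 1.32 at week 6, -0.44 at week 15 and 0.94 at week 29 (SE 0.22). Vtcn1 thus stood between the genes near control at week 15 and those wholly below it.

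Amy1 was the gene of the 5 with all 3 week 15 arrays below every control. Its log2 signal (probe set 1370359_at) was 4.67, 5.36 and 4.74 in the controls, 6.23, 6.27 and 6.24 at week 6, 3.86, 4.48 and 3.78 at week 15, and 5.92, 5.85 and 6.03 at week 29. The 4 groups overlapped at no point, with week 15 lowest, then control, then week 29, then week 6. The differences from control were 1.32 at week 6, -0.88 at week 15 and 1.01 at week 29 (SE 0.19), or 2.50-fold, 0.542-fold and 2.01-fold. A probe set listed for both Amy1 and Amy2a3, a pancreatic amylase gene, gave differences of 1.04, -0.99 and 0.94 (SE 0.26). The probe set listed for Amy2a3 alone stayed between 2.75 and 3.07 on all 12 arrays, near the lowest value in the table of 2.49. The 2 amylase genes are near copies, so signal could be split between their probe sets.

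**Figure D1:**
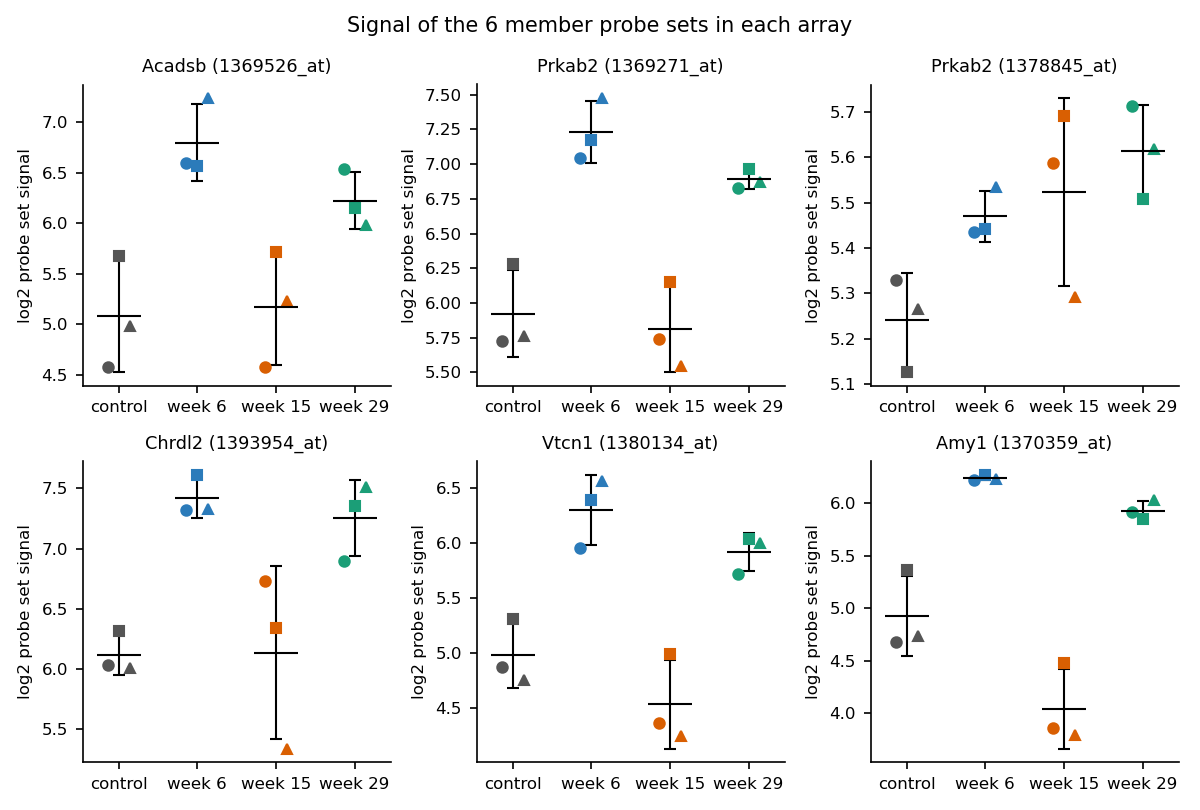
Log2 signal of the 6 member probe sets (vertical axes, each with its own range) in control, week 6, week 15 and week 29 arrays; points are arrays with 1 shape per replicate number, horizontal lines are group means and bars are SD (n = 3). Week 6 and week 29 points lie above all control points in every panel. At week 15 the means of Acadsb, Chrdl2 and the brighter Prkab2 probe set lie near the control mean. Their week 15 arrays outside the control range are 1 above and 1 below for Acadsb, 2 above and 1 below for Chrdl2, and 1 below for Prkab2. All week 15 points of Amy1 lie below its control points.

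Control replicate 2 was the highest control of Acadsb, of the brighter Prkab2 probe set, and of Chrdl2, Vtcn1 and Amy1. That array also had the lowest GAPDH 3' minus 5' value of the controls, 0.22 against 0.53 and 0.45, and the highest muscle score, 11.97 against 11.54 and 11.89. Leaving it out could not turn the sign of the week 6 and week 29 differences. For all 6 probe sets, the arrays of both weeks lay above every control.

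The rise at both weeks was a common pattern. The members were chosen for these differences, so their places in it, and in the classes below, only describe that choice. All week 6 and week 29 arrays lay above every control for 2199 of 14217 genes, or 15.5%. Ranked by the smaller of the week 6 and week 29 differences among these 2199, Acadsb was at place 18, Chrdl2 at 21, Amy1 at 50, Prkab2 at 66 and Vtcn1 at 85. Of the 46 skeletal muscle genes, 28 showed the same rise.

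The week 15 arrays divided the genes. For 907 genes (6.38% of all), the week 15 mean lay within 0.25 of control, and only 1 of the 46 muscle genes, Fbxo32, a ubiquitin ligase of muscle atrophy, was in this class. Within the class, by the smaller difference, Acadsb took place 1, Chrdl2 place 2 and Prkab2 place 4, as genes chosen for this course. Between them stood Mss51, a muscle mitochondrial gene, with 1.03 at week 6, -0.13 at week 15 and 1.12 at week 29. Grtp1, Nppc (C-type natriuretic peptide), St3gal3 (a sialyltransferase), LOC100912629, Pitx3 (a homeobox factor) and Mc5r (a melanocortin receptor) followed, with smaller differences of 0.79 to 0.90.

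For another 1197 genes (8.42%), all week 15 arrays lay below every control, 18 of the 46 muscle genes among them. Amy1 was at place 29 of these. The class was led by LOC100909637, Hbb (beta globin), Wdr17, P2rx6 (an ATP-gated channel), Phkg1 (the muscle catalytic subunit of phosphorylase kinase), Hspb2, Epdr1, Slc38a4, Lrrc14b and Nol3. Their week 15 differences ran from -1.42 to -0.90, beside -0.88 for Amy1. Vtcn1, at -0.44, belonged to neither class.

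**Figure D2:**
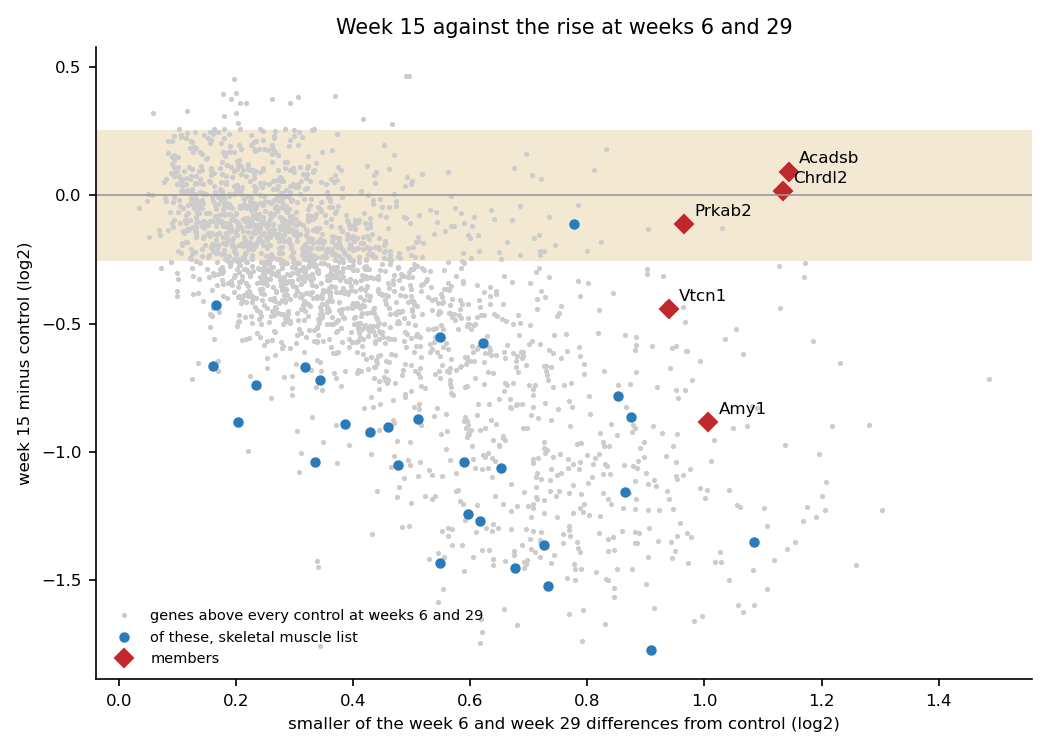
Each point is 1 of the 2199 genes with all week 6 and week 29 arrays above every control; the horizontal axis is the smaller of its week 6 and week 29 differences from control (log2), the vertical axis its week 15 difference (log2), and the shaded band spans 0.25 either side of 0. Acadsb, Chrdl2 and Prkab2 lie at the right of the band, Vtcn1 and Amy1 lie below it, and of the 28 muscle genes (blue) 1 lies in the band and the others below it.

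The weeks 6 and 29 were then compared directly, a difference the choice of genes did not use. The 5 genes had lower means at week 29 than at week 6 on their brighter probe sets, and none passed the test. The log2 difference, week 29 minus week 6, was -0.57 for Acadsb (SE 0.31, limma adjusted p = 0.584) and -0.34 for Prkab2 (SE 0.18, 0.562). It was -0.17 for Chrdl2 (SE 0.28, 0.887), -0.39 for Vtcn1 (SE 0.22, 0.591) and -0.32 for Amy1 (SE 0.19, 0.628). The other Prkab2 probe set gave 0.14 (SE 0.11, 0.717). The week 6 arrays lay above all week 29 arrays for Acadsb, for the brighter Prkab2 probe set and for Amy1. The 2 weeks overlapped for Chrdl2 and Vtcn1. How many of all probe sets separate these weeks in the same way was not counted, so the separation only describes these arrays. The 95% intervals ran from -1.26 to 0.11 for Acadsb, from -0.73 to 0.05 for Prkab2, from -0.78 to 0.44 for Chrdl2, from -0.85 to 0.08 for Vtcn1 and from -0.74 to 0.11 for Amy1. In this comparison limma called 0 of 31042 probe sets (0%), with 3005 at an unadjusted p under 0.05, and no other tool was run.

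The signals also varied between arrays of 1 group, and this variation was set against the muscle score and the GAPDH value with the group means taken out. The muscle score had positive slopes for all 5 genes and none was called. The slope, in log2 signal per unit of score, was 0.73 for Chrdl2 (SE 0.23, limma adjusted p = 0.175), 0.50 for Vtcn1 (SE 0.19, 0.243) and 0.48 for Amy1 (SE 0.16, 0.203). It was 0.44 for Prkab2 (SE 0.15, 0.205) and 0.37 for Acadsb (SE 0.33, 0.608). Of 30996 probe sets outside the score, 582 (1.88%) were called, 534 with a positive slope. Without week 15 replicate 3, which had the lowest muscle score, 0 were called and the Chrdl2 slope was -0.10. Without week 15 replicate 2 the Acadsb slope was -0.19.

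The slope on the GAPDH value, a comparison added after the data were seen, was steepest for Acadsb. It was -3.30 for Acadsb (SE 0.47, limma adjusted p = 0.107, unadjusted p = 1.8e-05), in log2 signal per unit of 3' minus 5' signal. It stayed between -3.63 and -3.16 when each array was left out in turn. Without week 15 replicate 3 the limma adjusted p for Acadsb was 0.0449, in a setting that called 42 of 31042 probe sets. In each of the 4 groups the array with the lowest GAPDH value had the highest Acadsb signal. The array with the highest GAPDH value had the lowest Acadsb signal in the controls and at weeks 6 and 15, but not at week 29, where it had the middle one. The slopes were -1.73 for Amy1 (SE 0.43), -1.41 for Vtcn1 (SE 0.62), -1.30 for Prkab2 (SE 0.48) and 0.63 for Chrdl2 (SE 0.96), with adjusted p of 0.362, 0.735, 0.658 and 0.962. Of 31042 probe sets limma called 0 (0%), with 2061 at an unadjusted p under 0.05, and no other tool was run.

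**Figure D3:**
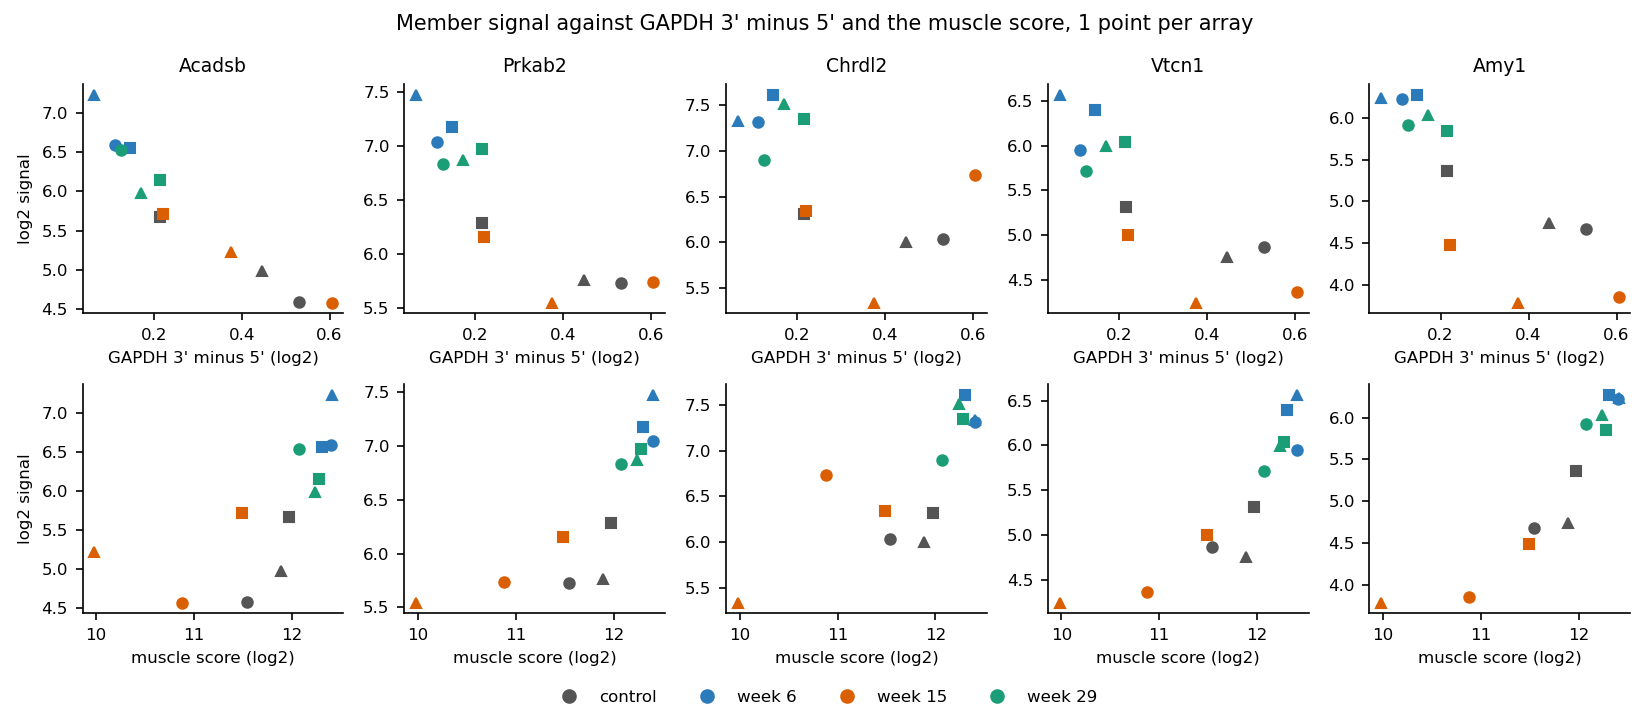
Log2 signal of the 5 genes (vertical axes, brighter probe set) against the GAPDH 3' minus 5' value (upper row, log2) and the muscle score (lower row, log2), 1 point per array, coloured by group and shaped by replicate number. Acadsb signal lies lower where the GAPDH value is higher, and Amy1 signal lies higher where the muscle score is higher. The points pool all 4 groups, so the group differences for which the genes were chosen weigh in both, and neither is a test.

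With the GAPDH value as a covariate, the Acadsb differences from control were 0.76 at week 6 and 0.39 at week 29 in place of 1.72 and 1.14, and those of Amy1 were 0.82 and 0.61. Prkab2 then stood at 0.93 and 0.67, Vtcn1 at 0.92 and 0.62, and Chrdl2 at 1.48 and 1.28. Adjusted for the muscle score instead, the week 6 differences were 1.51 for Acadsb, 1.05 for Prkab2, 0.89 for Chrdl2, 1.04 for Vtcn1 and 1.05 for Amy1. At week 15 the same covariate gave 0.47 for Acadsb, 0.34 for Prkab2, 0.75 for Chrdl2, 0.06 for Vtcn1 and -0.39 for Amy1. The part of muscle content and of RNA integrity in the members' group pattern was not tested, since both values differ between the groups along with the signals.

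Genes of the members' pathways, from lists drawn up by function with earlier results of these data known, were tested against control with limma at an adjusted p under 0.05. Over all 14217 genes, 5.07% were called higher and 3.76% lower at week 6, 1.54% higher and 8.38% lower at week 15, and 8.44% higher and 10.8% lower at week 29. The median log2 difference over all genes was -0.03, 0.03 and 0.01 at weeks 6, 15 and 29. The 3 comparisons share the control arrays. The list counts depended on single arrays. At week 6, limma called 0 genes of the pathway lists with either covariate, or without any one of control replicates 1 and 3 and week 6 replicates 2 and 3, and 1 gene without week 6 replicate 1. At week 29, the acyl-CoA dehydrogenase list went from 9 called to 1 without control replicate 1 or 3 or week 29 replicate 2, and to 0 without week 29 replicate 3 or with the GAPDH covariate. With the muscle covariate, more calls stayed at week 29. Genes called higher went from 9 to 3 for acyl-CoA dehydrogenases, 14 to 9 for branched-chain breakdown and 9 to 7 for glycogen. The AMPK subunit list stayed at 4 higher and 1 lower, and the AMPK substrate list at 6 higher and 2 lower. Genes called lower went from 4 to 0 for BMP antagonists and 7 to 4 for BMP targets. At week 15, 0 pathway genes were called with the muscle covariate, and the glycogen list went from 8 called to 1 without control replicate 2.

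Acadsb was set beside 13 other acyl-CoA dehydrogenases and their electron acceptors. Of these, 8 rose at week 6 and 5 did not pass, 9 rose at week 29 and 4 did not pass, and 3 fell at week 15 and 10 did not pass, with list medians of 0.43, 0.39 and -0.29. Acadm, which handles medium-chain fatty acids, gave 0.61, -0.63 and 0.59 at weeks 6, 15 and 29 (adjusted p = 0.0269, 0.0190 and 0.0187). Ivd, which acts in leucine breakdown, gave 0.58, -0.55 and 0.51, and Acad8, which acts in valine breakdown, 0.59, -0.86 and 0.62, all called. Acads gave 0.43, -0.46 and 0.54 and Acadl 0.37, -0.32 and 0.39, each called at week 29 alone. These values were all under those of Acadsb at weeks 6 and 29, and at week 15 they lay below its 0.09. Acadsb was chosen for its values at these weeks, so the comparison only describes that choice.

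The list of branched-chain amino acid breakdown, which shares Acad8 and Ivd with the previous one, had 15 of 27 genes higher at week 6, 14 higher and 1 lower at week 29, and 11 lower and 1 higher at week 15. Its medians were 0.41, 0.42 and -0.31. Aldh6a1, of valine breakdown, gave 0.81, -0.79 and 0.65 at weeks 6, 15 and 29. Bckdha, of the dehydrogenase complex that commits branched-chain keto acids to breakdown, gave 0.68, -0.46 and 0.62. Slc7a5, a leucine transporter, was the 1 gene that rose at week 15, by 1.07 (adjusted p = 0.0329).

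Beside Prkab2, the AMPK genes split by isoform. The catalytic subunit Prkaa2, abundant in muscle, gave 1.16, -0.62 and 1.07 at weeks 6, 15 and 29 and was called at weeks 6 and 29. The gamma subunit of skeletal muscle, Prkag3, gave 0.94, -1.35 and 1.15 and was called at weeks 15 and 29. The widely expressed subunits were not called in any of the 3 comparisons: Prkaa1 gave 0.21, -0.30 and 0.07, and Prkab1, the other beta subunit, -0.28, 0.16 and -0.21. Prkag1 gave 0.04, 0.01 and 0.02 and Prkag2 -0.15, 0.20 and -0.30. Over the 14 subunit and upstream kinase genes, 3 were higher at week 6, 2 lower at week 15, and 4 higher and 1 lower at week 29. Stradb, a partner of the upstream kinase LKB1, gave 0.60, -0.48 and 0.60, and Camkk1, another upstream kinase, fell by 0.64 at week 29 (adjusted p = 0.0213).

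Of 22 AMPK substrates and outputs, 4 were higher at week 6, 5 lower at week 15, and 6 higher and 2 lower at week 29. Acacb, the acetyl-CoA carboxylase that restrains mitochondrial fat oxidation, gave 0.74 at week 6 and 0.75 at week 29 (adjusted p = 0.0236 and 0.0132), with -0.19 at week 15. Acacb was among the 17 of 22 genes not called at week 15.

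Chrdl2 was set beside a list of 17 other genes drawn up for BMP antagonists, and these were called in both directions. The list was broad and also held Bmp1, so its counts are not of antagonists alone. At week 6, 2 of them were higher, at week 15, 6 were lower, and at week 29, 2 were higher and 4 lower. Nog (noggin) gave 1.01, -1.14 and 0.99 and Bmper 0.71, -1.18 and 1.08 at weeks 6, 15 and 29, all called. Chrd and Chrdl1, the relatives closest in name, were not called: Chrd gave 0.05, -0.12 and 0.31, and Chrdl1 0.01, -1.07 and -0.88 with an SE of 0.55. Grem1 fell by 1.41 at week 29 (adjusted p = 0.0286).

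Among 20 BMP and activin ligands and receptors, 1 was higher at week 6, 3 were lower at week 15, and 1 was higher and 3 lower at week 29. The 1 higher gene was Mstn (myostatin, made by muscle), with 1.66 at week 6 and 1.49 at week 29 (adjusted p = 0.0203 and 0.0124) and -0.72 at week 15. Inhba fell by 1.38 at week 29. Of 16 BMP target and SMAD genes, 3 were lower at week 6, 0 were called at week 15 and 7 were lower at week 29. Id1, a direct BMP target, fell by 0.92 at week 6 and by 1.22 at week 29 (adjusted p = 0.0209 and 0.00465), and gave -0.46 at week 15.

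The relatives of Vtcn1 were not called where Vtcn1 was high. Over all genes, 5.07% were called higher at week 6 and 8.44% at week 29. For a list of this size, 0 called higher is near those shares. Of 14 B7 family and T cell checkpoint genes, limma called 0 at week 6 and at week 29, and 1 at week 15, where Icoslg, the ICOS ligand, fell by 0.64 (adjusted p = 0.0383). The list ran from -0.45 to 0.06 at week 6 and from -0.51 to 0.13 at week 29. These lay under the 1.32 and 0.94 of Vtcn1, which was chosen for being high at these weeks. Cd80, Cd86 and Cd276, other ligands of the family, lay between -0.21 and 0.13 in all 3 comparisons. Of 18 T and natural killer cell markers, 0 were called in any of the 3 comparisons, where 0 called higher is again near the shares of all genes. Their mean signal was 5.22 to 5.44 at week 6 and 5.30 to 5.89 at week 29 against 5.37 to 5.66 in controls.

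Around Amy1, enzymes of glycogen and starch had medians above control at weeks 6 and 29 and below it at week 15. Of 16 genes, 4 rose at week 6, 8 fell at week 15, and 9 rose and 2 fell at week 29, with medians of 0.73, -0.92 and 0.75. Phkg1 gave 1.30, -1.25 and 1.19 at weeks 6, 15 and 29 and Phkb, a regulatory subunit of the same kinase, 0.82, -0.93 and 1.03. Gaa, the lysosomal glycogen-degrading glucosidase, gave 0.73, -0.32 and 0.76. Pygm, the glycogen phosphorylase of muscle, gave 0.51, -0.87 and 0.82 and was not called.

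No marker of salivary and mucous glands was called higher where Amy1 was high. Of 20 measured, 0 were higher in any comparison, beside 5.07%, 1.54% and 8.44% of all genes at weeks 6, 15 and 29. For a list of this size, 0 is near those shares. The week 6 differences ran from -1.59 (Krt8) to 0.90 (Smr3b), with a median of -0.12. The mucosal glycoprotein gene Dmbt1 fell by 0.64 at week 6 and by 0.86 at week 29 (limma adjusted p = 0.0259 and 0.00830). The markers' mean log2 signal ran from 5.21 to 5.64 in controls, 5.14 to 5.47 at week 6, 5.15 to 5.56 at week 15 and 5.21 to 5.32 at week 29. The source of the Amy1 signal was not tested. Of the skeletal muscle list, 2 of 46 genes rose and 1 fell at week 6, 12 fell at week 15, and 2 rose and 1 fell at week 29, with medians of 0.53, -0.98 and 0.47. Of the 21 squamous genes, 4 fell at week 6, 0 were called at week 15 and 16 fell at week 29. Their medians were -0.75, 0.43 and -0.92.

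**Figure D4:**
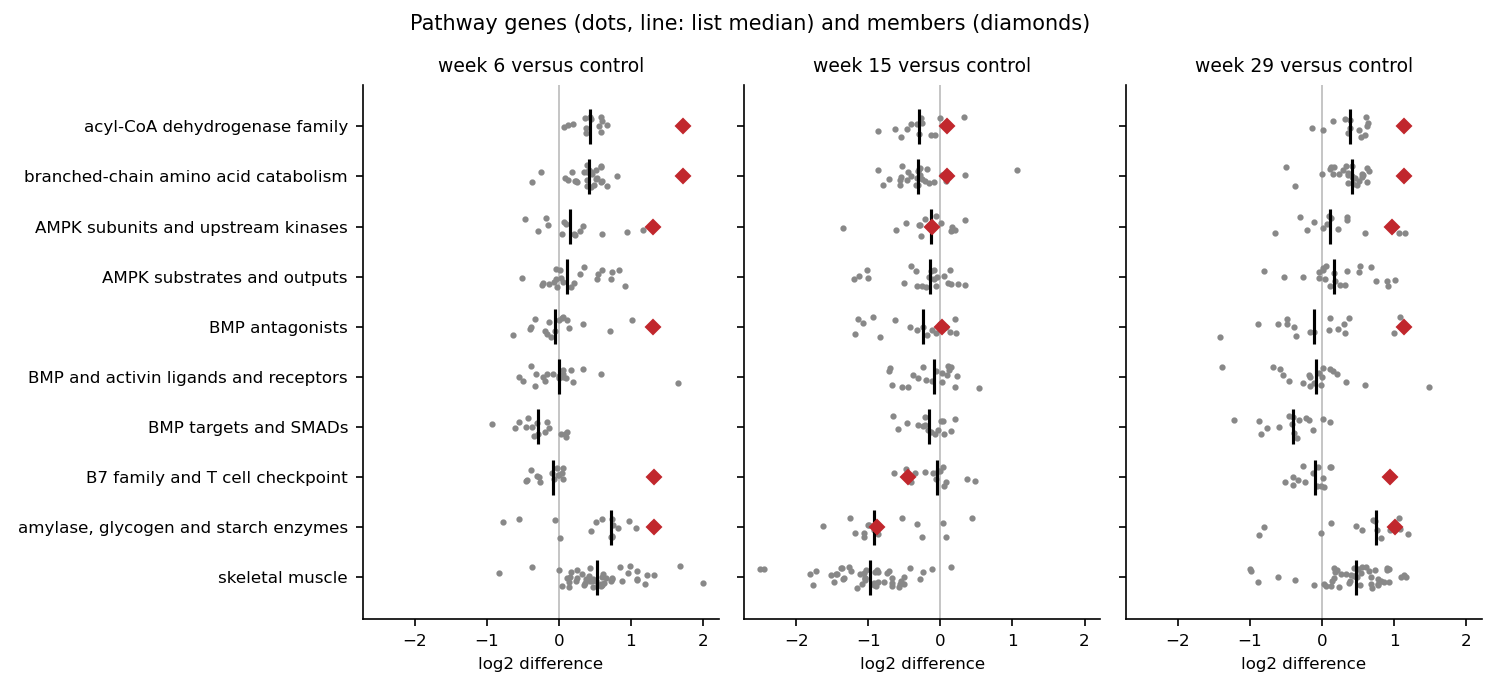
Log2 difference from control (horizontal axis) at weeks 6, 15 and 29 for the genes of 10 lists (grey dots, 1 per gene; black line, list median) and for the members (red diamonds, drawn in the lists of their pathways). At weeks 6 and 29 the diamonds of Acadsb, Chrdl2 and Vtcn1 lie beyond all dots of their lists, while Amy1 lies among its list at weeks 15 and 29. The members, unlike the list genes, were chosen for these differences.

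Last, the named genes most like each member were found by Pearson r over the 12 arrays, a description in which the group means weigh most. For Acadsb they were Kpna1 (r = 0.970), Fbxo32 (0.969), Adipor2, an adiponectin receptor (0.958), Clip1 (0.954) and St3gal3 (0.953). For Prkab2 they were St3gal3 (0.982), Stat5b (0.981), Vtcn1 (0.981), Ttc33 (0.970) and Tomm34 (0.967). Vtcn1 in turn was closest to Ttc33 (0.988), Bpgm (0.987), Stat5b (0.984), Prkab2 (0.981) and Mmp24 (0.981), so it shared 2 genes with Prkab2 and each was among the other's 5.

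The 5 genes closest to Amy1 were Mmut (0.989), Prdx3 (0.988), Pdhx (0.987), Galnt5 (0.987) and Nadk2 (0.987). Mmut is methylmalonyl-CoA mutase, Prdx3 a mitochondrial peroxidase, Pdhx part of the pyruvate dehydrogenase complex and Galnt5 a glycosyltransferase of the Golgi. Chrdl2 was closest to C13h1orf74 (0.959), Rpusd3 (0.950), Akr1b10 (0.950), Gaa (0.949) and Antkmt (0.948), and shared none of its 5 with another member. Over the 25 places, 1 was held by a gene of the muscle list, Fbxo32. That list holds only 46 of the 14217 named genes, so the low count says little about likeness to muscle genes.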

How the data were processed

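RNA of 12 rat esophageal samples was measured on 1 expression array each. Per the submitters' processing notes, the authors made the deposited log2 probe set signals with Affymetrix Expression Console, by a summarization method not given in the sources used here, and the log2 scale was read from the values (2.49 to 14.71). Values were used as deposited. Array medians lay between 6.41 and 6.48; detection calls were not used, so the number of arrays limits the precision.

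The table held 31099 probe sets; 57 array controls were dropped and the other 31042 tested, dim ones included. The annotation gave 1 symbol to 20826 probe sets and several to 436, and did not list 9780. A gene was represented by its probe set with the highest mean. Limma 3.58.1 in R 4.3.3 was fitted once to the 4 groups (two-sided, Benjamini-Hochberg over all probe sets, called at an adjusted p under 0.05), with within-group slopes in separate fits, and was tested on simulated data.

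The members and lists were chosen with earlier results of these data known. Genes named were the members, up to 4 called genes with the largest difference per pathway list and comparison, fixed close relatives, the 5 genes most like each member and the 10 leading each pattern. The alternatives covered normalization, dim probe sets, the samples fitted, an intensity trend in the variance, the muscle and GAPDH covariates, the replicate block and each array left out.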

Additional observations from a re-analysis of the deposited data

Results flagged for a closer look

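Amy1 moved in opposite directions at different weeks, with all 3 arrays below every control at week 15 and all 3 above every control at week 6 and at week 29. Its week 15 mean was lower than the week 6 mean by a log2 difference of -2.21, and lower than the week 29 mean by -1.89. The difference between these effects was not tested, since the gene was chosen for this course.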

How the results depend on the processing

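The members' differences at weeks 6 and 29 stayed above 0 under every alternative run for their probe set. Leaving out an array, or fitting only the groups compared, could not turn these signs, since all arrays of both weeks lay above every control. A filter on dim probe sets (mean under 6) removed Acadsb, Amy1, Vtcn1 and the dimmer Prkab2 probe set. The number of probe sets called depended on the setting. Week 6 gave 2342, and 4391 with only the groups compared, 1 with the muscle covariate, 8 with the GAPDH covariate, 4028 without the week 15 arrays (an alternative added after seeing the data), and 1 to 3454 with each array left out. Week 15 gave 2455, and 135 with only the groups compared, 0 with the muscle covariate (limma, 4490 at an unadjusted p under 0.05), and 881 to 3057 with each array left out. Week 29 gave 4705 (2397 higher), and 2006 with the muscle covariate, 132 with the GAPDH covariate (13 higher), and 274 to 6120 with each array left out. The muscle slope gave 582, and 0 with the contractile genes alone (2327 unadjusted), 0 without the week 15 arrays (2899 unadjusted), and 0 to 599 with each array left out. The comparison of weeks 29 and 6 gave 0 in every setting. The cause of these shifts was not tested.

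Signs turned when single arrays were left out: the week 15 differences of Acadsb (-0.18 to 0.39), Chrdl2 (-0.28 to 0.42) and the brighter Prkab2 probe set (-0.28 to 0.07), Chrdl2 between weeks 29 and 6 (-0.30 to 0.0092), and the muscle slopes of Acadsb (-0.19 to 1.69), Chrdl2 (-0.10 to 1.33) and the dimmer Prkab2 probe set (-0.0827 to 0.24, and -0.43 without the week 15 arrays). The GAPDH slope did so for that Prkab2 probe set (-0.26 to 0.63) and for Chrdl2 (-1.36 to 1.62, and -0.35 without the week 15 arrays).

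Samples shared only a replicate number: same-numbered arrays deviated with r of -0.413 to 0.290 over 18 pairs, and 3 of 12 arrays correlated best with their own number. With the replicate block, 2420, 2432 and 4556 probe sets were called at weeks 6, 15 and 29, 0 between weeks 29 and 6, and 288 for the muscle slope.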
